A study of Homo sapiens with 4 samples.

Results

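The comparison of DDX1 knockdown with control shRNA rests on 1 sample a side, shNS and shDDX1, of the 4 samples in the study. Both came from U2OS, a human osteosarcoma line. Lentivirus delivered a short hairpin RNA, either a control (shNS) or one against DDX1 (shDDX1), and infected cells were kept under puromycin at 2 µg/ml. How many hairpins were used against DDX1, and whether the cells were a pool or a clone, is not given in the sources used here. Total RNA was taken up in Trizol, reverse transcribed and measured by SYBR Green PCR on a pair of plates, panels I and II. The members of the comparison are the 716 human miRNA assays, of 737 on the plates, whose quantification cycle (Ct, the cycle at which a well's product crosses a threshold, so that a higher Ct means less RNA) was under 35 in both samples. The other pair of samples, 1 without and 1 with neocarzinostatin at 500 ng/ml for 6 hours, is used here for the wells with very early Ct. DDX1 mRNA has no assay on the plates, so the extent of the knockdown is not analysed here.

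A primary miRNA transcript is cropped in the nucleus by Drosha and DGCR8 into a hairpin, which Dicer then cuts in the cytoplasm into a duplex of the 5p and 3p arms. Many miRNA genes lie together and are transcribed as 1 polycistronic primary transcript, so mature miRNAs of 1 cluster share transcription and may still differ in processing. DDX1 is a DEAD-box RNA helicase, and the study's title places it in the processing of a subset of primary miRNAs. The panels read mature miRNA and cannot separate transcription, cropping, dicing and decay. In the older names used on the plates, a star marks the arm that is usually less abundant.

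The miRNAs on which the comparison turns belong to the miR-200 family, to the long 14q32 cluster and to a few hairpins whose arms moved together. The miR-200 family is transcribed from a pair of clusters, MIR200B to MIR429 at chr1:1167104-1169087 and miR-200c with miR-141 on chromosome 12. Its members repress the ZEB transcription factors and are known for keeping epithelial cells epithelial. The mature sequences from RefSeq (GRCh38.p14) are shown 5′ to 3′ with the seed, bases 2 to 8, in capitals, because the seeds divide the family differently from the clusters.
miR-200b: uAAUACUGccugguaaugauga
miR-200c: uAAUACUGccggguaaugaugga
miR-429: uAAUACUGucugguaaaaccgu
miR-200a: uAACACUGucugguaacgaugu
miR-141: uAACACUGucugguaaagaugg
miR-200b, miR-200c and miR-429 share the seed AAUACUG, and miR-200a and miR-141 share AACACUG. miR-200c and miR-141 therefore have seed partners in the other cluster.

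Some of the lower 14q32 members named in the text are shown next, since they come from 1 stretch of chromosome 14 and mostly carry different seeds. miR-376a is among them for the seed that it shares with miR-376b.
miR-329: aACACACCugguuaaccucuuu
miR-376a: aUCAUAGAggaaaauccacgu
miR-376b: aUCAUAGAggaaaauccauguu
miR-381: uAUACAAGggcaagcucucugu
miR-154*: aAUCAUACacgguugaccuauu
miR-409-3p: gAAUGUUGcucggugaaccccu
miR-369-5p: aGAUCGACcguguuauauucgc
The shared seed of miR-376a and miR-376b is UCAUAGA. The cluster spans chr14:101022066-101066801 on the plus strand.

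The hairpins of miR-200b, miR-26b and miR-409, which had both arms lower, are shown in full, with the mature arms in capitals.
MIR200B: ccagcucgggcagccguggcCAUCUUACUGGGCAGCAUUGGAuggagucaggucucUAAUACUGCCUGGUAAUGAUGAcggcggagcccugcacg
MIR26B: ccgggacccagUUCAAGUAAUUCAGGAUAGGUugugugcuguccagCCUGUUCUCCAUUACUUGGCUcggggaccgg
MIR409: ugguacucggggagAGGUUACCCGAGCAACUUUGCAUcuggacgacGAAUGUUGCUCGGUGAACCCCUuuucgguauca
MIR200B lies at chr1:1167104-1167198, MIR26B at chr2:218402646-218402722 and MIR409 at chr14:101065300-101065378, each on the plus strand of GRCh38.p14. The miRNA and its star arm were read by separate wells, which for these hairpins were on different panels.

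Ct under 35 was reached by 371 of 375 miRNA wells of panel I in shNS and by 368 in shDDX1. On panel II the numbers were 361 and 355 of 365. Panel I ran later in shDDX1, with a mean Ct difference (shNS minus shDDX1) over its miRNA wells of -1.01 cycles, against 0.046 for panel II. The 3 calibrator wells of each plate, which hold a spiked template, gave -0.68 and 0.24 cycles. Ratios were therefore taken within each panel, first centred on the panel's mean over its miRNA wells and then set by its calibrators. Each log2 ratio below is shDDX1 over shNS, with 1 cycle taken as 1 doubling.

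With no replicate there is no test, and the spread available is technical. The plates repeat 7 assays across panels, and these gave a log2 ratio an SD of 0.689 after panel centring and 0.609 by calibrators. For the 3 miRNAs among them it was 0.426 and 0.348. Part of this is an offset between the panels, since 7 of 7 repeated assays gave a higher ratio on panel I than on panel II, with a median difference of 0.71 after panel centring (0.14 to 1.87) and 0.58 by calibrators. The repeated assays were read early, at Ct 14.2 to 23.4. Among wells at a mean Ct of 15 to 24 the median panel-centred ratio was 0.65 for panel I against 0.41 for panel II. It was 0.27 against 0.16 at 24 to 28, -0.13 against -0.14 at 28 to 32, and 0.34 against -0.22 at 32 to 35. These medians compare different assays. Ratios read on different panels, as for many pairs of arms, may carry an offset, and its size in later wells was not tested. U6 small nuclear RNA, a common reference, gave a log2 ratio after panel centring of 2.11 where read with panel I and 0.25 with panel II. The threshold of 2-fold, 1 log2 unit, is thus not far above the technical SD, and the spread between cultures is unknown.

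In the shDDX1 sample, 87 miRNAs were at least 2-fold lower after panel centring, which is 12.2% of 716, and 82 were at least 2-fold higher, 11.5%. By calibrators 119 were lower, 16.6%, and 45 higher, 6.28%. Of the assays past 2-fold, 51.5% were lower after panel centring, 72.6% by calibrators, 67.5% after centring on panel medians and 80.7% with no centring, so the balance of falls and rises depended on the scaling. The median log2 ratio over all assays was 0.16 after panel centring and -0.07 by calibrators. Within a panel the calibrator ratio is the panel-centred ratio less a constant. The 87 lower after panel centring and the 45 higher by calibrators thus pass 2-fold under both settings by construction. Passing under both is therefore no independent support. These assays were spread over both plates, with 54 and 33 lower and 24 and 21 higher on panels I and II.

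**Figure D1:**
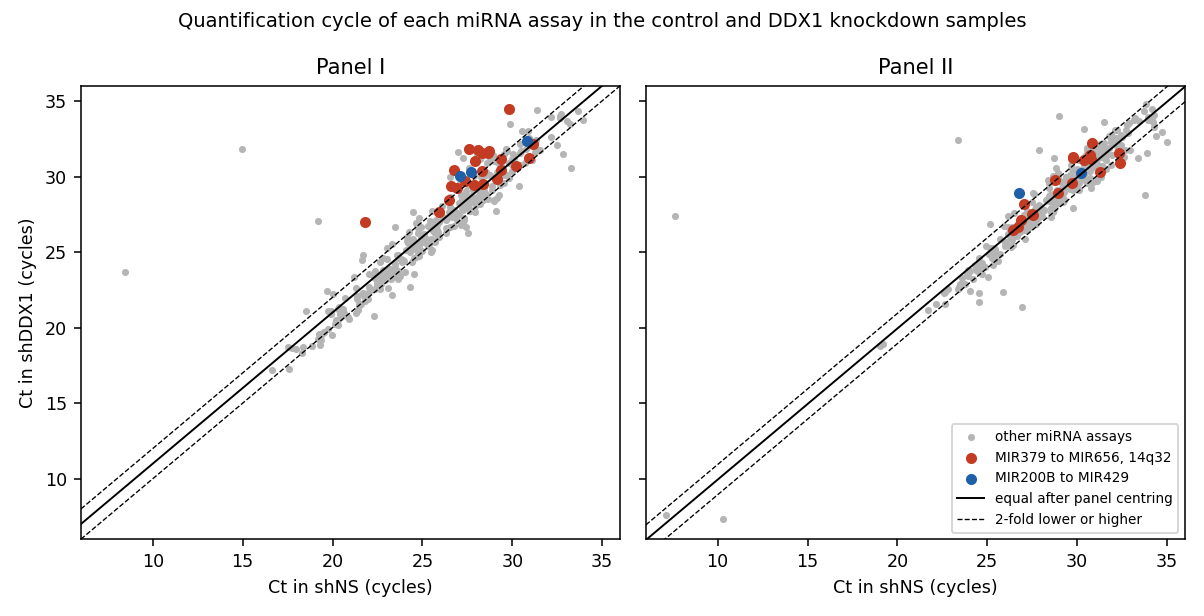
Ct in shDDX1 (vertical axis, cycles) against Ct in shNS (horizontal axis, cycles) for each quantified miRNA well of panel I (left) and panel II (right); 1 point is 1 well, the solid line marks equality after panel centring and the dashed lines 2-fold. Of the panel I wells of MIR379 to MIR656 (red), 13 of 23 lie beyond the 2-fold line on the lower side, and 5 wells at the far left started before cycle 15 in shNS.

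The miR-200 family held 9 assays, and all 9 were quantified. In the MIR200B to MIR429 cluster 3 of 5 assays were at least 2-fold lower and none was higher. Over all assays 12.2% were lower and 11.5% higher after panel centring. The cluster's median was -1.63 after panel centring and -1.96 by calibrators. This was the lowest median among the clusters with 4 or more quantified assays, under either setting. In the cluster of miR-200c and miR-141 none of 4 assays was past 2-fold after panel centring, with a median of 0.079. Plate position differed between these clusters. On panel I miR-200b, miR-200a and miR-429 lay in columns 7 to 18, and miR-200c and miR-141 in the outer columns. Of all panel I wells 24.9% were lower in columns 7 to 18, against 4.42% in the outer columns. With the median of neighbouring wells subtracted, 4 of 5 assays were lower in MIR200B to MIR429 and 2 of 4 in the chromosome 12 cluster.

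miR-200b went from a Ct of 27.1 in shNS to 30.0 in shDDX1, a log2 ratio of -1.93 (calibrators -2.26). Its star arm, read on the other panel, went from 26.8 to 28.9, a ratio of -2.21 (calibrators -2.41). Both products of the MIR200B hairpin shown above were thus lower by similar amounts. miR-200a, cut from the neighbouring hairpin, went from 27.7 to 30.3, a ratio of -1.63 (calibrators -1.96). Its star arm stood at 30.2 in both samples, a ratio of -0.096 (calibrators -0.29). The arms of the miR-200a hairpin, with the guide on panel I and the star arm on panel II, thus had unlike ratios, the panel I ratio being the lower. miR-429, from the downstream end of the cluster, went from 30.8 to 32.4, a ratio of -0.52 (calibrators -0.85), short of 2-fold.

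On chromosome 12, miR-200c went from 27.9 to 29.4 and had a ratio of -0.52 (calibrators -0.85). miR-141 went from 27.6 to 29.4, with a ratio of -0.79 after panel centring and -1.12 by calibrators. Their star arms pointed the other way, at 0.68 for miR-200c* (31.4 to 30.7) and 0.99 for miR-141* (31.3 to 30.2). The 5 guide arms of the family, all read on panel I, were thus below 0 in each case, from -1.93 to -0.52 for the seed AAUACUG and from -1.63 to -0.79 for AACACUG. After subtraction of the median of neighbouring wells on the plate (within 2 rows and 2 columns), miR-429 stood at -1.39, miR-141 at -1.15 and miR-200c at -1.52, and 6 of the 9 assays were then at least 2-fold lower and none higher. Over all 716 assays that subtraction gave 92 lower and 57 higher. Centring on a common mean over both panels gave 6 lower and 2 higher in the family. That setting leaves the offset between panels in, with 87 wells lower and 14 higher on panel I. On panel II it gave 12 lower and 99 higher. The guide arms were read on panel I and the star arms on panel II, so arm and panel cannot be told apart in these counts.

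The deposited tables do not give the same values for this family. In shNS and shDDX1 alike, the authors' deposited table of shifted Ct differs from the Ct table by a constant, which is -0.789 for wells of panel I and 0.789 for those of panel II, over nearly all of the 731 assays compared. It departs by a further -2 cycles, within 0.01, for miR-200b* in shDDX1, for miR-200c in shDDX1, and for miR-429 in both samples. In the uncentred Ct table the log2 ratio of miR-200b* is -2.17, while the authors' deposited table of shifted values gives -0.17 and their deposited fold is 0.891. For miR-200c the uncentred Ct table gives -1.53, the shifted values of the authors' deposited table give 0.47, and their deposited fold is 0.489, or -1.03 on the log2 scale. For miR-429 both samples were moved alike, and the ratio stays at -1.53 in each table. Among the assays compared, 4 departed from the constant or from the fold, and miR-21, with a fold of 0.967 in the authors' deposited table against a log2 ratio of -0.57 from Ct, is the fourth. The fall of both arms of miR-200b therefore holds in the Ct table and not in the deposited fold table, and why the tables differ was not tested.

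The 14q32 region carries a long run of imprinted miRNA genes, expressed from the maternal chromosome, next to the non-coding RNA MEG3. Among RefSeq miRNA genes, neighbours within 10 kb on 1 strand formed MIR493 to MIR136, 8 hairpins, and MIR379 to MIR656, 42 hairpins. In MIR379 to MIR656, 2-fold falls were seen for 18 of the 41 quantified assays and a rise for 1, with a median of -0.77 (calibrators: 21 lower, 1 higher, median -1.09). In MIR493 to MIR136 none of 13 was lower and 2 were higher, with a median of 0.082 (calibrators -0.25). The share of lower assays in MIR379 to MIR656 was thus 43.9%, beside 12.2% over all assays. That cluster held 20.7% of the 87 lower assays and 5.73% of the 716 quantified. Its median minus that of all assays ran from -1.08 to -0.89 over the scalings tried. Most of these scalings subtract a constant for each panel or for all wells. The difference could therefore change little, and its narrow range is no independent support.

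**Figure D2:**
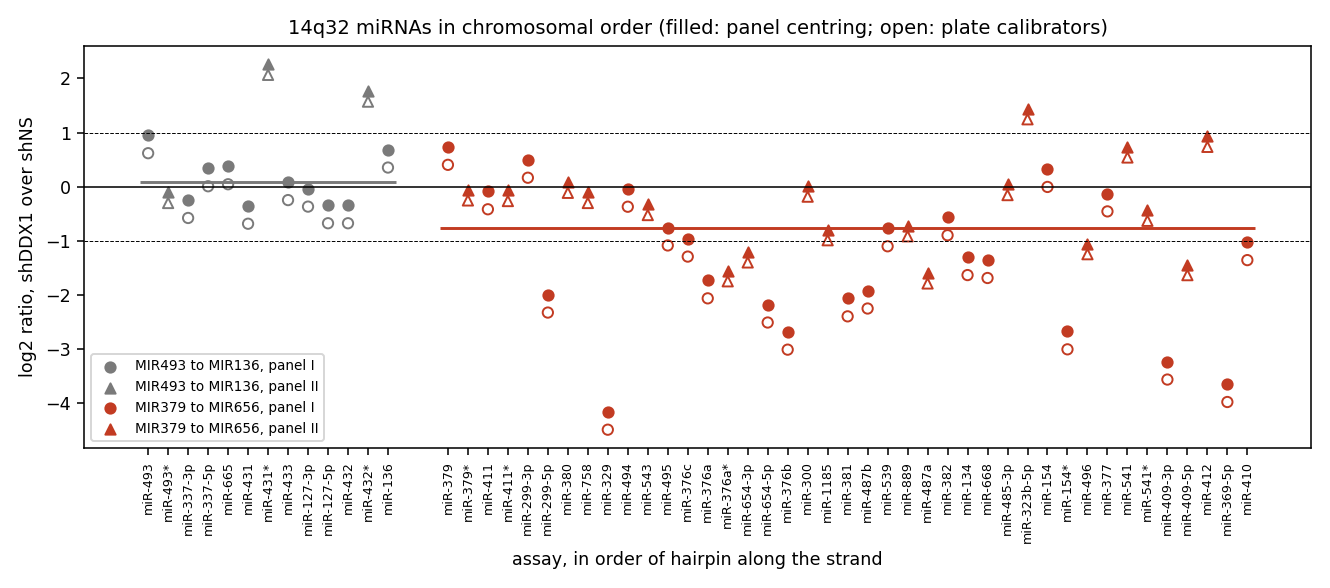
Log2 ratio, shDDX1 over shNS (vertical axis), for each quantified 14q32 assay in order of its hairpin along the strand (horizontal axis); filled marks are after panel centring, open marks by plate calibrators, circles are panel I, triangles panel II, and thick bars are cluster medians. The MIR493 to MIR136 assays (grey) centre on 0.082 and the MIR379 to MIR656 assays (red) on -0.77, with the lowest, miR-329, at -4.16.

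miR-329 went from 21.8 to 26.98, a log2 ratio of -4.16 (calibrators -4.49), the largest fall in the region. miR-409-3p went from 27.6 to 31.8, a ratio of -3.24, and miR-409-5p, on the other panel, from 30.8 to 32.2, a ratio of -1.44. These miRNAs come from opposite ends of the cluster, miR-329 near its start and miR-409 close to its end. miR-412, between miR-409 and miR-369, had the ratio 0.93 (31.3 to 30.3), and miR-369-5p had -3.65 (29.8 to 34.5). miR-376b, from the middle of the cluster, went from 26.7 to 30.4, a ratio of -2.68. miR-376a and its star arm had ratios of -1.73 and -1.55. miR-376a and miR-376b share the seed shown above, and they lie beside miR-654, whose 5p and 3p arms had ratios of -2.18 and -1.20. miR-381 followed at -2.07 (27.9 to 30.999), with miR-487b at -1.92, miR-487a at -1.59 and miR-134, a miRNA known from dendritic spines, at -1.30.

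The cluster did not move as a block. miR-154* had the ratio -2.68 (28.1 to 31.8), while miR-154, from the other arm of the same hairpin, was at 0.32. miR-299-5p was at -1.997 and miR-299-3p at 0.50. The first miRNA of the cluster, miR-379, was at 0.73 (30.9 to 31.2), and the highest member was miR-323b-5p at 1.44 (32.4 to 30.9). Lower members were thus scattered over the length of the cluster, with members near or above 0 between them.

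Plate position and Ct differed between these assays and the rest. On panel I, 46 of 185 quantified wells in columns 7 to 18 were lower, 24.9%, against 8 of 181 in the outer columns, 4.42%. Of the panel I assays of MIR379 to MIR656, 14 of 23 lay in columns 7 to 18. Within those columns 10 of 14 were lower, 71.4%, against 36 of 167 other assays (assays of neither 14q32 cluster), 21.6%. In the outer columns 3 of 9 were lower, 33.3%, against 5 of 166 others, 3.01%. Low abundance divided the assays too, and at a mean Ct of 28 to 32 on panel I 10 of 18 cluster assays were lower against 21 of 97 others, 21.6%. On panel II 5 of 18 were lower, 27.8%, against 28 of 332 others, 8.43%. Plate rows mattered as well, since 16.6% of panel II wells in rows A to H were lower, against 1.74% in rows I to P. For panel I wells these shares were 19.8% and 9.78%. Of the lower cluster assays of panel II, miR-376a*, miR-654-3p, miR-487a and miR-496 lay in rows A to C and miR-409-5p in row I. The cluster was not compared with the others within rows, so 8.43% takes no account of row. In columns 7 to 18 of panel II 4 of 8 cluster assays were lower, 50%, against 7.51% of others. In its outer columns 1 of 10 was lower, 10%, against 9.43% of others, and 1 was higher. The cluster's median was -1.30 for panel I wells but -0.22 for panel II wells, where the others had 0.34 and 0.14. At a mean Ct under 28, 2 of 4 cluster assays of panel I were lower, against 8.44% of others. On panel II 1 of 6 was lower at a mean Ct under 28, with a median of -0.087, against 3.97% of others. At 28 to 32 on panel II 4 of 12 were lower, against 13.4% of others. The cluster's share of lower assays was larger in each column and Ct stratum given, though barely in the outer columns of panel II. The subtraction of neighbouring wells left 23 of its 41 assays lower and 2 higher, with a median of -1.06.

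**Figure D3:**
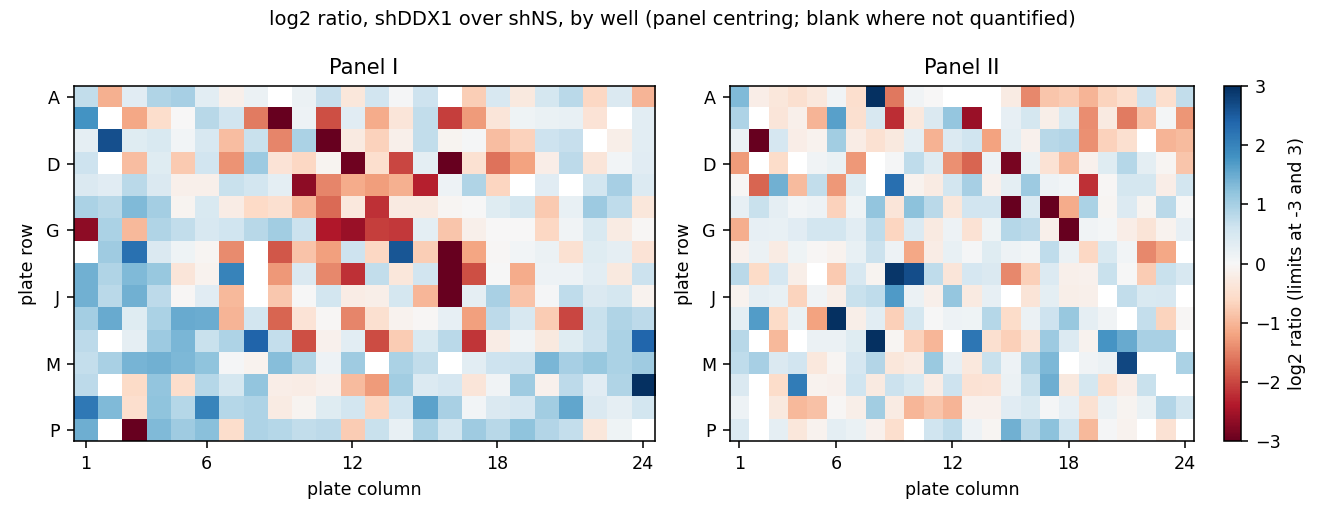
Log2 ratio, shDDX1 over shNS after panel centring, of each quantified miRNA well by plate row (vertical axis) and column (horizontal axis) on panel I (left) and panel II (right); red wells are lower in shDDX1, blue wells higher, and blank wells were not quantified or hold no miRNA assay. Lower wells gather in columns 7 to 18 of panel I, 46 of 185, against 8 of 181 in the outer columns.

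Arms of 1 hairpin leave the same precursor, and both were quantified for 179 hairpins. Both arms were at least 2-fold lower for 6 of them, namely miR-26b, miR-200b, miR-376a, miR-302c, miR-409 and miR-654. Both were higher for 3 after panel centring, miR-10a, miR-99a and miR-513a, of which 1, miR-513a, was also past 2-fold in both arms by calibrators. In 104 hairpins both arms were within 2-fold, in 27 one arm was lower and in 35 one arm was higher. In the remaining 4, miR-106a, miR-339, miR-499 and miR-96, the arms were past 2-fold in opposite directions.

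The largest joint fall was that of miR-26b, which lies in an intron of the phosphatase gene CTDSP1 and is known as a repressor of EZH2 and of cell growth. miR-26b went from 23.5 to 26.7, a log2 ratio of -2.19, and miR-26b* from 27.8 to 31.8, a ratio of -3.95. Its close relative miR-26a, which has the same seed, stood at -0.21 (20.7 to 21.9). miR-302c of the embryonic stem cell cluster went from 28.7 to 31.2, a ratio of -1.46, and miR-302c* from 29.9 to 33.5, a ratio of -2.59. After subtraction of neighbouring wells miR-302c was at -0.61, no longer past 2-fold, while the other 5 hairpins kept both arms past it.

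miR-99a, of a family that represses mTOR, went from 24.3 to 22.7, a ratio of 2.63, and miR-99a* had the ratio 1.32 (calibrators 0.99). miR-10a, from the HOXB locus, stood at 25.7 in both samples, a ratio of 1.02 after panel centring and 0.68 by calibrators. miR-513a was measured late, with Ct of 33.3 and 30.6 for the 5p arm, a ratio of 3.71, and 34.4 and 32.7 for the 3p arm, a ratio of 1.62. After subtraction of neighbouring wells miR-99a* was at 0.88 and miR-10a at 0.57, and only miR-513a kept both arms past 2-fold. The joint rises of miR-99a and miR-10a thus each had an arm close to the threshold, and that of miR-513a was late in both arms.

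Of the opposite pairs, miR-106a was at 1.21 and miR-106a* at -2.85, the latter from 30.4 to 33.2. miR-339-3p went from 24.5 to 21.7, a ratio of 2.74, with miR-339-5p at -1.25 (23.3 to 25.6). After subtraction of neighbouring wells miR-106a was at 0.023 and miR-339-5p at -0.15, so in each pair 1 arm then kept its change. Across the 179 hairpins Pearson's r between arms was 0.066 and Spearman's rho 0.14, given as a description over hairpins of 1 pair of samples. For arms on different panels (124 hairpins) r was 0.094, and for arms on the same panel (55 hairpins) 0.089. The median gap between arms was 0.70, and 71 hairpins had a gap over 1. Without the 3 hairpins that have an arm under Ct 15, r was 0.16 and rho 0.12 over 176 hairpins, and 69 had a gap over 1.

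**Figure D4:**
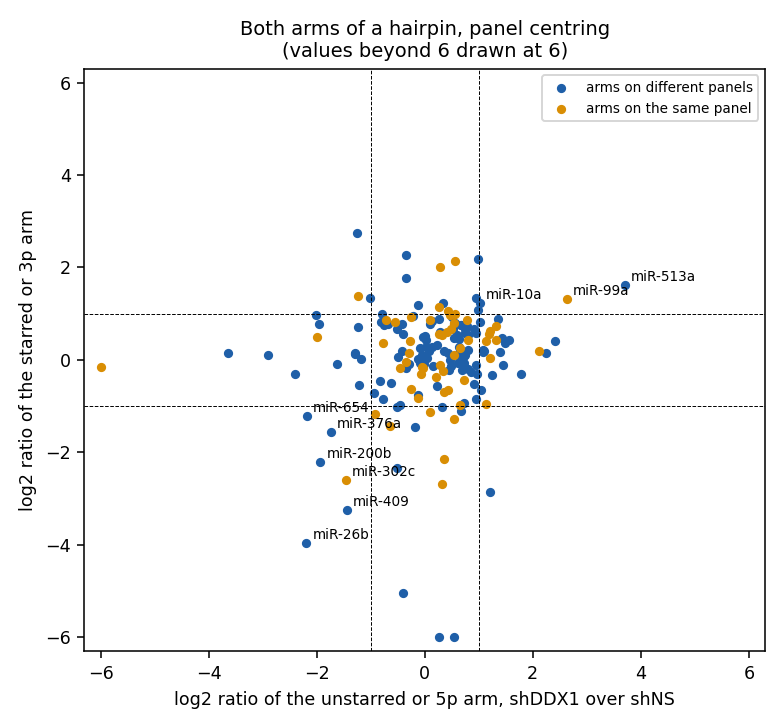
Log2 ratio, shDDX1 over shNS after panel centring, of the starred or 3p arm (vertical axis) against that of the unstarred or 5p arm (horizontal axis) for 179 hairpins, 1 point each, coloured by whether the arms were read on 1 panel or on different panels; dashed lines mark 2-fold and values beyond 6 are drawn at 6. The 6 hairpins with both arms lower lie at the lower left, miR-26b at -2.19 and -3.95, and the 3 with both higher at the upper right.

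Outside these groups, the falls at Ct 15 to 32 in both samples that were largest under both settings were led by miR-572, which went from 19.2 to 27.1, a fall of 118-fold after panel centring. miR-329 and miR-26b*, described above, came next. miR-488, from an intron of the astrotactin gene ASTN1, went from 26.97 to 31.6, 12.5-fold lower, and miR-340 from 27.3 to 31.2, 7.503-fold lower. miRPlus-C1076, a proprietary assay, was 6.03-fold lower, miR-516b of the chromosome 19 cluster 5.30-fold and miR-323-3p, also of 14q32 but not matched to a locus here, 5.05-fold. The rest of the 12 largest falls were miR-409-3p, miR-376b, miR-154* and miR-200b*, given above, so that 5 of the 12 came from the 14q32 list, which makes up 7.82% of the quantified assays.

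The position of the largest falls on the plate was uneven. Of the 20 quantified wells of panel I that were at least 4-fold lower, 5 lay in column 16, which holds 16 miRNA wells. From top to bottom of the plate they read miR-381, miR-570, miR-572, miR-488 and finally miR-548c-3p, and column 16 also held 2 of the 3 wells of panel I that passed to Ct 35 or later in shDDX1, miR-325 and miR-617. miR-570 and miR-548c-3p started before cycle 15 in shNS. No other column of either panel held more than 3 wells at least 4-fold lower. This column was singled out after its values were seen, and its part in the falls of its assays was not tested.

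The largest rise at Ct 15 to 32 was that of miR-579, from 26.9 to 21.4, 45.8-fold higher. miR-663b followed, from 25.8 to 22.4 (10.9-fold), then miR-339-3p (6.68-fold), miR-99a (6.17-fold) and miR-29b (5.92-fold). miR-29b, a repressor of collagen and of DNA methyltransferases, went from 22.3 to 20.8, while miR-29a (20.2 to 20.4) and miR-29c (20.4 to 21.3), which share its seed, had ratios of 0.80 and 0.046. The ratio of miR-29b was thus above those of miR-29a and miR-29c. miR-29b was named here for the size of its rise. The technical SD is that of a ratio and not of a difference between ratios. Whether miR-29b stood apart from the other guides of its family was therefore not tested. miR-550a, miR-144, miR-93*, miR-140-3p, miR-199a-3p, miR-370 and miR-551b were 3.46-fold to 5.32-fold higher.

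The let-7 family, which represses RAS, HMGA and LIN28 transcripts, had 18 quantified assays, with a median of 0.17. Of these 2 were lower and none higher, beside 12.2% lower and 11.5% higher over all assays. The sequences of 3 guides are shown, seed in capitals, since they share it and differ in few other bases.
let-7a: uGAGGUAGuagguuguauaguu
let-7f: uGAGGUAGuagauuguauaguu
let-7g: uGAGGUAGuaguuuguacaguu
let-7f went from 21.6 to 24.5, a log2 ratio of -1.87, and let-7a from 21.2 to 23.4, a ratio of -1.18. let-7g stood at 20.3 and 20.5, a ratio of 0.80, and miR-98 was the highest of the family at 0.93. Both lower members were guide arms, and their star arms let-7a*, let-7a-2*, let-7f-1* and let-7f-2* had ratios from 0.023 to 0.52. By calibrators 4 of the 18 were lower and none higher, with let-7i at -1.13 and a star arm, let-7c*, at -1.16 added to let-7f at -2.20 and let-7a at -1.51.

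The miR-15/16 family, which restrains cyclins and BCL2, divided in a like way. The sequences of 3 of its guides are shown, which share the seed AGCAGCA with miR-195, miR-424 and miR-497.
miR-16: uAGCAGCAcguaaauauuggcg
miR-15a: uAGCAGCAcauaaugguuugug
miR-15b: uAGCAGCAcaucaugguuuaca
miR-16 went from 19.7 to 22.4, a log2 ratio of -1.70, and miR-15a from 20.0 to 19.5, a ratio of 1.44. miR-15b was at 0.98, and miR-16-2*, from the other arm of a miR-16 hairpin, at 1.13. miR-16 is made from a pair of loci, MIR16-1 and MIR16-2, that the assay does not separate. Among 12 assays of the family 2 were lower and 3 higher after panel centring, beside 12.2% lower and 11.5% higher over all assays. With neighbouring wells subtracted, the ratio of miR-16 was -0.78 and that of miR-15a 0.40, neither past 2-fold. The cluster MIR15B to MIR16-2 had the highest median of the clusters after panel centring, 1.03, and by calibrators, 0.77, with miR-16 as its 1 lower member. With neighbouring wells subtracted its median was 0.45, below that of MIR199A2 to MIR214 at 1.05 and several others.

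The cluster MIR17 to MIR92A1, known as an oncogenic target of MYC, had 2 lower and 1 higher of 11 quantified assays. Over all assays 12.2% were lower and 11.5% higher. miR-17* went from 23.3 to 32.4, a log2 ratio of -9.15, while miR-17 was at 0.55 (23.9 to 24.3). miR-18a* was at -2.14 (24.5 to 27.6) and miR-18a at 0.35. Both falls were thus those of star arms, and miR-19b was the higher member at 1.44. The 8 assays with the seed AAAGUGC had a median of 0.67 with none lower, the highest of the seed groups of 4 or more after panel centring. They were miR-17, miR-20a, miR-20b, miR-93, miR-106a and miR-106b, with miR-519d and miR-526b* of chromosome 19. With neighbouring wells subtracted their median was 0.36. All but miR-526b* were read on panel I, where all quantified wells at a mean Ct of 15 to 24 had a median of 0.65. That is the range of miR-20a, miR-93, miR-106a and miR-106b, so the seed group was not set apart from early wells of its panel. The lowest seed groups were AGCAGCA at -0.11, AAAGCGC of the miR-518 group at 0.020 and GAGGUAG of let-7 at 0.024. AAGUGCU (12 assays) stood at 0.22, AUUGCAC (6) at 0.18 and ACAUUCA of miR-181 (4) at 0.52. The medians of the 7 seed groups thus ran from -0.11 to 0.67, with that of all assays, 0.16, between them.

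The miR-34 and miR-449 family is induced by p53 and in ciliated cells. It had 3 lower and 1 higher of 9 assays, beside 12.2% lower and 11.5% higher over all assays. miR-449b (31.4 to 34.4) was at -1.97, miR-449a (24.8 to 27.3) at -1.47 and miR-34a (20.0 to 22.2) at -1.23. miR-34b was the higher member at 1.49 (29.3 to 28.8), and miR-34c-5p stood at 0.48. The family thus moved in both directions, and after subtraction of neighbouring wells miR-34a was at -0.53 and miR-34b at 0.63.

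Some miRNAs reach the precursor form without Drosha, mirtrons by splicing among them, and are listed apart from those that need cropping. Of 9 such assays 1 was lower and none higher, with a median of 0.53 (calibrators 0.33). Over all assays 12.2% were lower and 11.5% higher, and 9 assays are too few to show whether the group was spared. miR-320a, whose hairpin end is a transcription start, was at 0.84 (19.4 to 19.6), and miR-484 at 0.45. miR-877, a mirtron of ABCF1, was at -0.40, while miR-877* went from 29.0 to 34.0, a ratio of -5.03. The other 8 assays of the group were within 2-fold, beside a median of 0.16 over all assays.

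miRNAs reported to be processed more after DNA damage through the RNA-binding protein KSRP held 5 lower and 3 higher of 15 assays, with a median of 0.023, beside 12.2% lower and 11.5% higher over all assays. The lower ones were miR-26b and its star arm, let-7a, miR-16 and miR-106a*. miR-21, an oncogenic miRNA, was at 0.43 (16.6 to 17.2). The list was written with earlier results of these data known, and by calibrators its count of higher members was 0.

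Of the remaining lists, the 6 quantified HOX cluster assays held 3 higher and none lower, beside 11.5% higher and 12.2% lower over all assays. By calibrators 2 of them were higher, and with neighbouring wells subtracted 1. In this list miR-196b was at 1.44 and miR-196a at -0.51. The 11 assays of miR-99, miR-100 and miR-125 had a median of 0.72, from miR-125b-1* at -1.17 to miR-99a at 2.63. The 11 of miR-30 had a median of -0.18, from miR-30b* at -0.96 to miR-30b at 1.13. The 12 of the CLCN5 intron had 2 lower, miR-188-5p at -1.21 and miR-362-3p at -1.11, beside 12.2% lower over all assays. The chromosome 19 cluster, a primate-specific placental cluster, had 2 lower and 1 higher of 48 after panel centring, with a median of 0.034. The shares over all assays were 12.2% lower and 11.5% higher. By calibrators the cluster had 5 lower and none higher, with a median of -0.19. Centring on a common mean over both panels, which leaves the offset between panels in, gave 5 lower and 8 higher. Under that setting 99 of all 716 assays were lower and 112 higher. Among the clusters with high medians were also MIR508 to MIR513A2 at 0.78, MIR99B to MIR125A at 0.74 and MIR106B to MIR25 at 0.68. Those with low medians after the ones above were MIR891B to MIR892C at -0.49, where miR-888 was at -2.005, and MIR452 to MIR224 at -0.42.

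**Figure D5:**
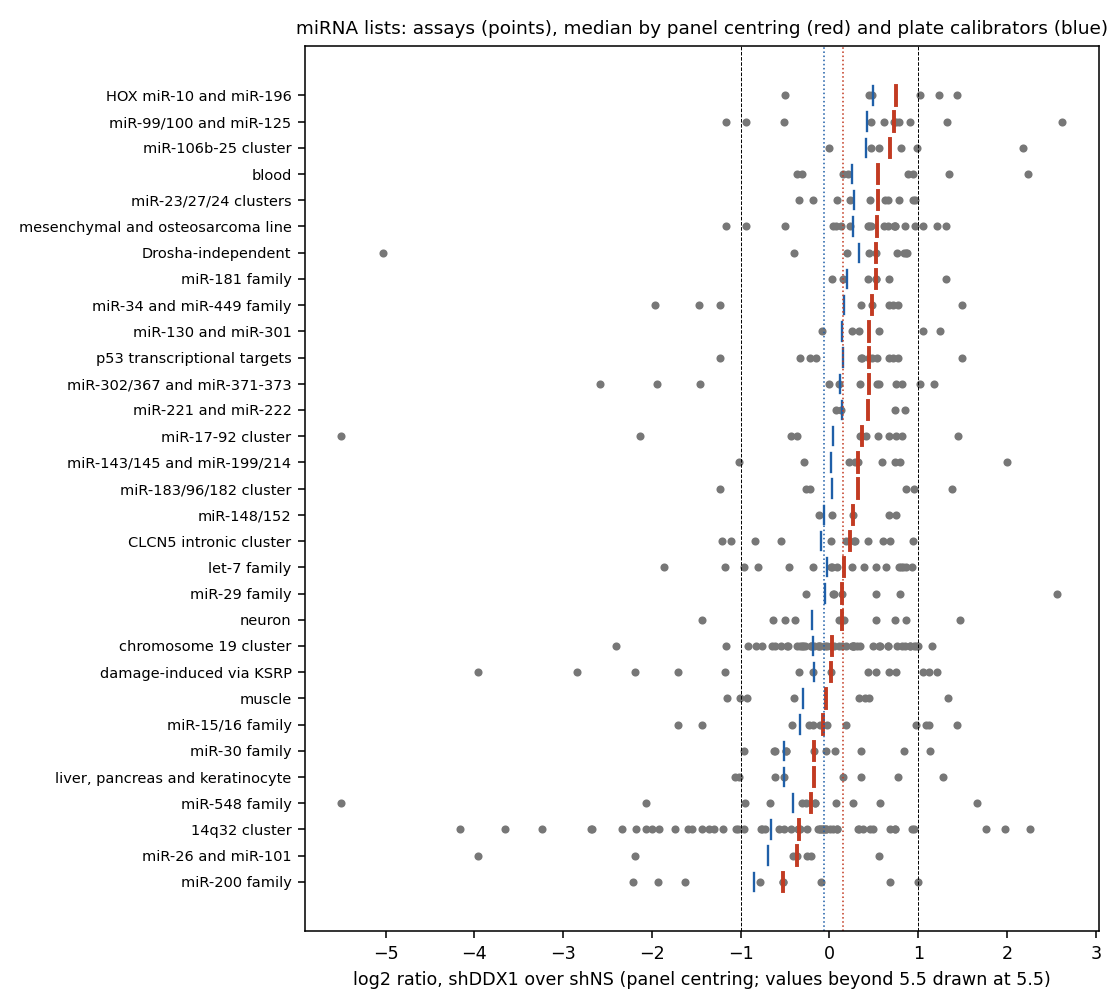
Log2 ratio, shDDX1 over shNS after panel centring (horizontal axis), of each quantified assay (grey points) in 31 miRNA lists (rows), with the list's median after panel centring (red) and by plate calibrators (blue); dotted lines are the medians of all assays, dashed lines mark 2-fold, and values beyond 5.5 are drawn at 5.5. The miR-200 family has the lowest list median at -0.52 and the HOX list the highest at 0.75.

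The miRNAs known to be abundant in mesenchymal and osteosarcoma lines were measured early in shNS, with a median Ct of 23.5 against 27.5 over all assays. Markers of other tissues came later, with medians of 29.4 for muscle, 27.7 for blood, 28.2 for liver, pancreas and keratinocyte and 26.3 for neuron. All but 1 of these markers of other tissues, a neuronal one, still had a Ct under 35 in both samples. Blank wells bear on this, since 6 of 9 in shNS and 7 of 9 in shDDX1 gave a Ct. The earliest was at 27.8 and 27.3 on panel I and at 26.6 and 26.5 on panel II, in shNS and shDDX1. Of the miRNA wells under Ct 35, 32.3% and 46.5% on panel I and 75.6% and 75.5% on panel II came later than that blank. In shNS and shDDX1 these later wells included 32 and 39 of the 41 assays of MIR379 to MIR656 and 6 and 9 of the 9 of the miR-200 family, and by Ct alone they cannot be told apart from product in a blank.

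Some wells lay outside the range of a ratio. miR-513c went from 21.97 to 36.3, at least 8610-fold lower, and miR-1266 (28.6 to 36.1) was at least 85.9-fold lower. miR-617 was at least 79.6-fold lower and miR-325 at least 9.13-fold. miR-620, undetermined in shDDX1, was at least 5.54-fold lower. In the other direction, miR-371-3p was at least 208.1-fold higher (37.9 to 28.3) and miR-802, undetermined in shNS, at least 124.0-fold. Each bound sets the late or missing well at Ct 35 after panel centring.

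A further 5 assays started before cycle 15. miR-875-5p went from 7.61 to 27.4, miR-570 from 8.45 to 23.7 and miR-548c-3p from 14.9 to 31.8. miR-603 was at 10.3 and 7.33 and miR-188-3p at 7.14 and 7.64. In the pair without and with neocarzinostatin miR-570 was at 33.4 and 15.3 and miR-188-3p at 12.7 and 12.1. The earliest of the other assays in shNS was miR-21 at 16.6, and the first 3 of these 5 had larger falls than any other quantified assay. The 5 enter the panel means and the counts, and without them the panel-centred counts were 96 lower and 65 higher. With assays at Ct 15 to 32 in both samples alone, 72 of 638 were lower and 32 higher under both settings.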

How the data were processed

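The authors deposited 3 tables: Ct per well (cycles), shifted Ct, and a linear fold (ratio) of each sample over its control. Per the labels, Trizol RNA was copied with an Exiqon reverse transcription kit and read with SYBR Green; thresholds are not given in the sources used here. 2 columns of the deposited fold table, for control samples, were not used. Ct was the starting point here. A log2 ratio is shNS Ct minus shDDX1 Ct, minus the panel's mean difference over miRNA wells under Ct 35 in both samples; the alternative subtracts the difference of 3 calibrator wells. 3 miRNAs present on both panels were averaged. Each group has 1 sample, so no p-value was computed, and the labels name no separate cultures. The calculation was tested on simulated data.

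Members and the 31 lists were chosen with earlier results of these data known. Named were the 12 largest falls and rises at Ct 15 to 32 past 2-fold under both settings, the miR-200 family, each other list's extremes, hairpins with both arms past 2-fold, 4 clusters at each end, seed groups, bounds and wells under Ct 15; other members of a group described were named after their values were seen. RefSeq (GRCh38.p14) sequences matched 228 assays by name and 358 by arm, with arms of unsuffixed names assigned from common usage; 36 matched a locus only and 94 did not match. Python 3.11.15, pandas 2.3.3 and numpy 2.4.6 were used.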

Additional observations from a re-analysis of the deposited data

Results flagged for a closer look

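Blank wells, which the comparisons do not use, gave product in both samples. On panel I the earliest blank had a Ct of 27.8 in shNS and 27.3 in shDDX1, and on panel II 26.6 and 26.5. The next earliest blank on panel II came at 34.6 and 34.8, so the early product on that panel was that of 1 of 7 blanks. No value of the comparison had a group of 4 or more samples, and with 1 sample a group no difference between groups of effects was tested.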

How the results depend on the processing

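With 1 sample a group, no replicate could be left out. No paired analysis was possible because there is 1 sample a side. The 87 lower miRNAs became 257 with small RNA references, 176 with no centring, 174 and 175 in the authors' deposited shifted and fold tables, 140 at 1.5-fold and 28 at 4-fold. The 82 higher became 45 by calibrators, 54 with panel medians, 24 with small RNA references, 42 with no centring and in both deposited tables, 202 at 1.5-fold and 17 at 4-fold. The 6 hairpins with both arms lower became 28 with small RNA references, 15 with no centring, 14 in either deposited table, 10 at 1.5-fold and 1 at 4-fold. The small RNA references, which themselves disagreed between panels, turned the sign of 8 named miRNAs, to -0.16 for miR-106a, -0.35 for miR-10a, -0.054 for miR-181a, -0.055 for miR-22, -0.24 for miR-30b, -0.19 for miR-373, -0.096 for miR-375 and -0.047 for miR-99a*; the cause was not tested. The median of all assays moved by -0.22 with calibrators, -0.16 with panel medians, -0.79 with small RNA references, -0.42 with no centring and -0.14 with neighbour subtraction. Ct limits of 37 and 32, no limit, and removal of assays under Ct 15 kept the counts within 1.5 times. Under neighbour subtraction 64 of 93 named miRNAs moved by less than the technical SD and 29 by more.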
